A study of Homo sapiens with 6 samples.

Results

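CD274 (PD-L1), PDCD1LG2 (PD-L2), CD276 (B7-H3), PVR (CD155), CD47 and LGALS9 (galectin-9) encode ligands through which a tumour cell restrains immune cells. These 6 genes, of 15953 measured, were chosen by name as checkpoint ligands, and because CD274 was among the genes that rose most after STIL knockdown in these same libraries. Their differences between the groups are therefore given as a description, with no test. RNA-seq was made from EJ, a human bladder cancer cell line, in 3 libraries labelled shNC and 3 labelled shSTIL. By the labels and the study's methods both groups carried a lentiviral short hairpin vector kept as a stable line, a negative control hairpin in shNC and a hairpin against STIL, a centriole assembly factor, in shSTIL. The deposited data are, however, named siNC and siSTIL, and a stable hairpin and a transient siRNA cannot be told apart from the values. The hairpin sequence, the number of hairpins and the number of separately grown cultures are not given in the sources used here, so p-values measure only the spread between these libraries, which may be technical.

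The libraries held 16214772 to 16431243 reads in shNC and 16734469 to 16901634 in shSTIL. STIL, the targeted gene, was at 5.98, 6.10 and 6.01 log2 CPM (log2 of reads scaled to library size) in shNC and at 4.05, 4.06 and 4.01 in shSTIL. This left 25.2% of the control level, a log2 difference of -1.99 (SE 0.05, adjusted p = 6.1e-12 in limma), with an exact two-sided permutation p of 0.1, the smallest that 3 against 3 libraries allow. Among markers of the labelled cell type, the simple epithelial keratin KRT18 was at 9.25 to 9.36 log2 CPM, whereas the epithelial adhesion genes EPCAM and CDH1 did not exceed 0.43 and -1.72. The urothelial markers UPK2, GATA3 and TP63 stayed below 0, UPK1A was at 0.31 to 1.12, UPK1B at -1.28 to 0.45 and PPARG at 4.22 to 4.58. Some markers differed between the groups in limma: KRT8 fell by 0.70, the mesenchymal markers VIM and FN1 by 0.68 and 1.19 and UPK1B by 1.12, while KRT7 rose by 0.49, AXL by 0.58 and PPARG by 0.26. Their part in the ligands' values was not tested. Gene calls used an adjusted p under 0.01, and by that rule 47.1% of all genes were called, 23.5% higher and 23.6% lower in shSTIL. Among the 11319 genes with a mean of 1 log2 CPM or more, fitted alone, 7448 were called.

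Checkpoint ligands act by binding inhibitory receptors on immune cells. PD-L1 and PD-L2 both bind PD-1 on T cells, PVR binds TIGIT as well as the activating receptor CD226, CD47 binds SIRPA on macrophages and blocks engulfment, and galectin-9 binds TIM-3. The receptor of CD276 is not settled. In many tumour cells CD274 transcription is driven by interferon gamma through JAK kinases, STAT factors and then IRF1, and also by NF-kB, MYC, AP-1 and growth factor signalling. The amount of PD-L1 protein depends in addition on glycosylation, recycling and ubiquitination.

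The promoter of CD274 is shown because the genes of the interferon pathway are described alongside it. The stretch lies at chr9:5450292-5450502 on the plus strand of GRCh38.p14 (RefSeq), before every annotated start of the gene. Capitals mark, first, a pair of overlapping matches to the core of the interferon-stimulated response element (ISRE), GAAA and GAAA with any 2 bases between them, and, second, a match to the gamma-activated sequence (GAS), TTCNNNGAA.
CD274 promoter: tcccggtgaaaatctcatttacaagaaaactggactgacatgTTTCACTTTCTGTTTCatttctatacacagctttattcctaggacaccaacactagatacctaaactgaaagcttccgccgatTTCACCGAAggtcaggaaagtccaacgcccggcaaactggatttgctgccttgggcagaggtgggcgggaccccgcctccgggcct

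Counted from the RefSeq start, the ISRE core matches began at positions -208 and -202 and the GAS match at -125. Both strands were searched from 250 bases before the start to 50 after it. Of 18288 RefSeq promoters of that length, 3.03% held the ISRE core and 6.3% the GAS sequence. The other motifs searched, AP-1 (TGANTCA, 5.77% of promoters) and the NF-kB consensus (6.82%), had no match in the CD274 window. LGALS9 had an ISRE core match at position -9 of its RefSeq window. That window, chr17:27630938-27631237, lies inside the annotated gene, which begins at 27629798. The CD276, PVR and CD47 windows held no match to any of the 4 motifs, and no PDCD1LG2 window was available to search. The motifs were chosen with the CD274 sequence in view, and a match describes letters only.

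CD274, a ligand of PD-1, differed more between the groups than the other members did. It was at 3.07, 3.30 and 3.28 log2 CPM in shNC and at 5.42, 5.29 and 5.41 in shSTIL. The lowest shSTIL library stood well above the highest shNC library. In reads these were 133, 159 and 153 against 728, 670 and 720. The log2 difference was 2.15 (SE 0.08, n = 3 per group), a 4.44-fold higher level. In CPM it went from 9.08 ± 0.83 to 41.9 ± 1.94 (SD). CPM here and below is reads over the library total, without the prior count and normalization factors of the log2 CPM. Ratios of CPM can therefore differ from the folds given. Among all 15953 genes CD274 ranked 37 by the size of its rise. It ranked 18 among the 11319 genes whose mean was 1 log2 CPM or more, and 5 among the 9943 genes whose mean was 3 or more. The gene (ENSG00000120217.13) lies at chr9:5450503-5470566 on the plus strand, and its principal transcript has 7 exons and 3644 bases. In bulk RNA, a change in the number of expressing cells and a change in RNA per cell cannot be told apart.

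PDCD1LG2, the other ligand of PD-1, was scarce. It was at 0.69, 0.29 and 0.46 log2 CPM in shNC and at 1.15, 1.39 and 0.77 in shSTIL. These values rest on 24, 18 and 20 reads and on 36, 43 and 27 reads. The groups did not overlap, but the lowest shSTIL library lay only just above the highest shNC library. The log2 difference was 0.62 (SE 0.22). The CPM ratio of CD274 to PDCD1LG2 was 5.54, 8.83 and 7.65 in shNC and 20.2, 15.6 and 26.7 in shSTIL, so the balance between the PD-1 ligands leaned further to CD274 in each knockdown library. PDCD1LG2 (ENSG00000197646.7, chr9:5510570-5571254, plus strand) begins 40003 bases beyond the end of CD274.

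**Figure D1:**
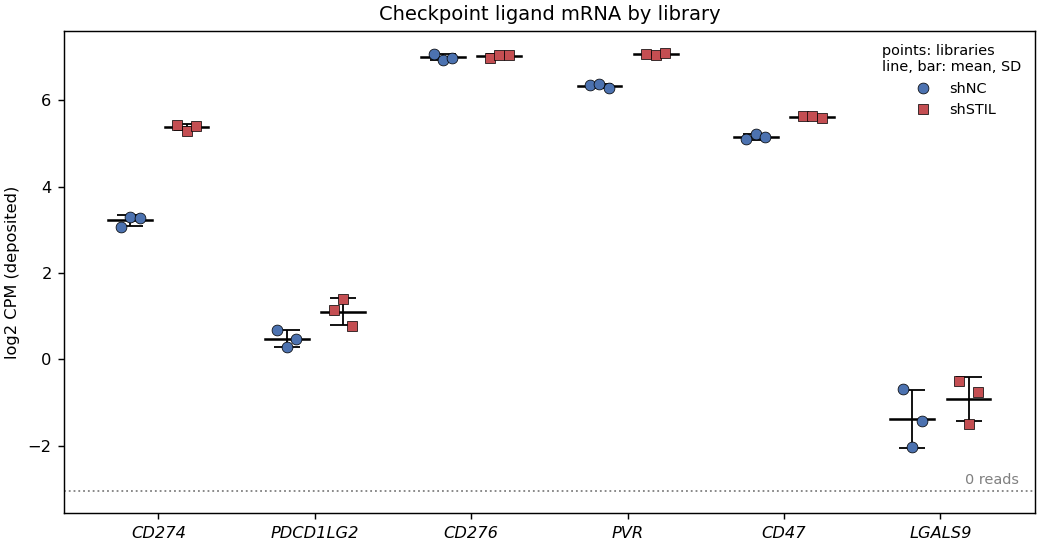
Deposited log2 CPM (y axis) of the 6 checkpoint ligands (x axis) in the 3 shNC libraries (circles) and the 3 shSTIL libraries (squares), with the mean and SD of each group and the value that 0 reads would have (dotted line). CD274 moved from about 3.07 to 3.30 up to 5.29 to 5.42, PVR and CD47 moved less, and the CD276 and LGALS9 libraries of the groups overlapped.

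CD276, a B7 family member, was abundant in both groups. It was at 7.07, 6.93 and 6.99 log2 CPM in shNC and at 6.99, 7.06 and 7.04 in shSTIL. The groups overlapped, and the log2 difference was 0.03 (SE 0.04), a 1.02-fold level on 1987 to 2287 reads per library. The sign of this difference turned to -0.0042 without shNC replicate 2. CD276 (ENSG00000103855.17) lies at chr15:73683966-73714518 on the plus strand.

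PVR, the poliovirus receptor and a ligand of TIGIT, was at 6.35, 6.38 and 6.28 log2 CPM in shNC and at 7.07, 7.04 and 7.09 in shSTIL. Every shSTIL library was above every shNC library. The log2 difference was 0.73 (SE 0.04), a 1.66-fold higher level, on 1233 to 1356 reads in shNC and 2268 to 2308 in shSTIL. The CPM ratio of CD276 to PVR was 1.66, 1.47 and 1.64 in shNC and 0.947, 1.01 and 0.97 in shSTIL. CD276 was thus the more abundant of this pair by CPM in shNC, and they were near parity in shSTIL. PVR (ENSG00000073008.14) lies at chr19:44643798-44663583 on the plus strand and overlaps CEACAM19 on that strand, so reads from the shared stretch could count for either. CEACAM19 itself was at 1.61 to 2.01 log2 CPM in shNC and 2.50 to 2.77 in shSTIL, far below PVR.

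CD47, the signal that macrophages read through SIRPA, was at 5.10, 5.23 and 5.14 log2 CPM in shNC and at 5.63, 5.63 and 5.60 in shSTIL. The groups did not overlap. The log2 difference was 0.46 (SE 0.05), a 1.38-fold higher level on 547 to 612 reads against 823 to 851. CD47 (ENSG00000196776.15) lies at chr3:108043094-108091862 on the minus strand.

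LGALS9, a ligand of TIM-3, was near the limit of detection. It was at -0.69, -2.04 and -1.43 log2 CPM in shNC and at -0.50, -1.50 and -0.76 in shSTIL, from 8, 2 and 4 reads and 10, 4 and 8 reads. The groups overlapped, and a difference was not detectable at this depth (log2 difference 0.46, SE 0.36). The difference was 0.14 without shNC replicate 2, 0.26 without shSTIL replicate 1, 0.76 without shSTIL replicate 2 and 0.81 without shNC replicate 1. LGALS9 (ENSG00000168961.16, chr17:27629798-27649560, plus strand) has near-identical copies, so reads could be split among them.

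Of the 6 members, 4 had every shSTIL library above every shNC library (CD274, PDCD1LG2, PVR and CD47), as did 29.9% of all genes. All 6 differences were positive. Since the members were chosen with this contrast in view, nothing is read from these counts.

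The order of the ligands was compared as CPM per kilobase of the principal transcript. In shNC it ran CD276 (36.3 ± 1.61, SD, n = 3), CD47 (27.3 ± 1.51), PVR (23.9 ± 0.977), CD274 (2.49 ± 0.228), PDCD1LG2 (0.535 ± 0.0796) and LGALS9 (0.0918 ± 0.06), and no neighbours in that order overlapped. In shSTIL PVR led (40.9 ± 0.539), with CD47 (38.8 ± 0.489) and CD276 (38.2 ± 1.04) next, and these last had overlapping libraries. CD274 followed at 11.5 ± 0.532, PDCD1LG2 at 0.887 ± 0.198 and LGALS9 at 0.14 ± 0.0582. The place of CD47 depended on the transcript, since with its longest coding transcript of 5225 bases, in place of 1285, it stood at 6.72 in shNC and 9.54 in shSTIL, below CD274 in the knockdown.

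The summed CPM of the 6 ligands was 246.6 to 255.2 in shNC and 360.1 to 366.0 in shSTIL. CD276 made up 48.1% to 51.7% of that sum in shNC and 35.7% to 37.4% in shSTIL. CD274 went from 3.19% to 3.85% of the sum to between 10.9% and 12%. PVR went from 30.8% to 32.8% to between 37% and 37.7%, while CD47 held 13.1% to 14.8% and 13.4% to 13.9%.

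**Figure D2:**
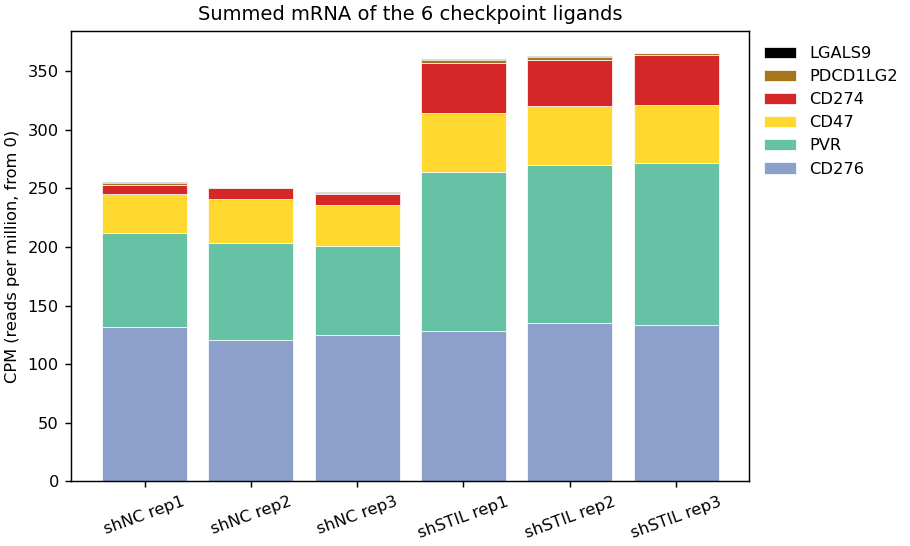
Summed CPM (y axis, from 0) of the 6 checkpoint ligands in each library (x axis, 3 shNC and 3 shSTIL), stacked by gene. The shNC bars reach 246.6 to 255.2 and the shSTIL bars 360.1 to 366.0, with the CD274 and PVR segments larger in shSTIL.

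The genes whose values over the 6 libraries lay closest to those of CD274 were NAV2, CCDC149, PRKCE, TM6SF1 and HDAC9. Closeness was the Euclidean distance between log2 CPM values centred on each gene's mean, among 11318 genes, whose median distance was 2.66. The distances were 0.20 for NAV2, 0.22 for CCDC149, 0.22 for PRKCE, 0.27 for TM6SF1 and 0.27 for HDAC9, and their log2 differences ran from 2.01 (TM6SF1) to 2.29 (HDAC9). With 2 groups of closely spaced libraries, this distance depends mostly on the difference between the groups. The list therefore mainly names genes whose rise was near the 2.15 of CD274, and no shared regulation is read from it.

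On chromosome 9, 8 measured genes besides the PD-1 ligands lay within 500000 bases of CD274 or PDCD1LG2. Of these 3 were called higher, 1 lower and 4 were not called, with log2 differences from -0.32 to 0.53, against 2.15 for CD274. KIAA2026 was 0.53 higher (adjusted p = 1.1e-05, limma) and RIC1 0.39 higher (adjusted p = 5.0e-05), while ERMP1 fell by 0.32 (adjusted p = 1.2e-05). PLGRKT, the measured gene nearest to CD274, differed by 0.17 (adjusted p = 0.0731). JAK2, the kinase bound to the interferon gamma receptor, lies further out on the same side as PLGRKT and was 0.40 higher (SE 0.10, adjusted p = 0.0029). JAK2 did not pass the threshold in any of the 6 fits made without 1 library. Within the same distance of the other members, 1 of 8 genes around CD276 was called higher and 1 lower, 7 and 6 of 25 around PVR, 1 and 2 of 5 around CD47, and 2 and 0 of 5 around LGALS9, beside 23.5% of all genes called higher and 23.6% lower.

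**Figure D3:**
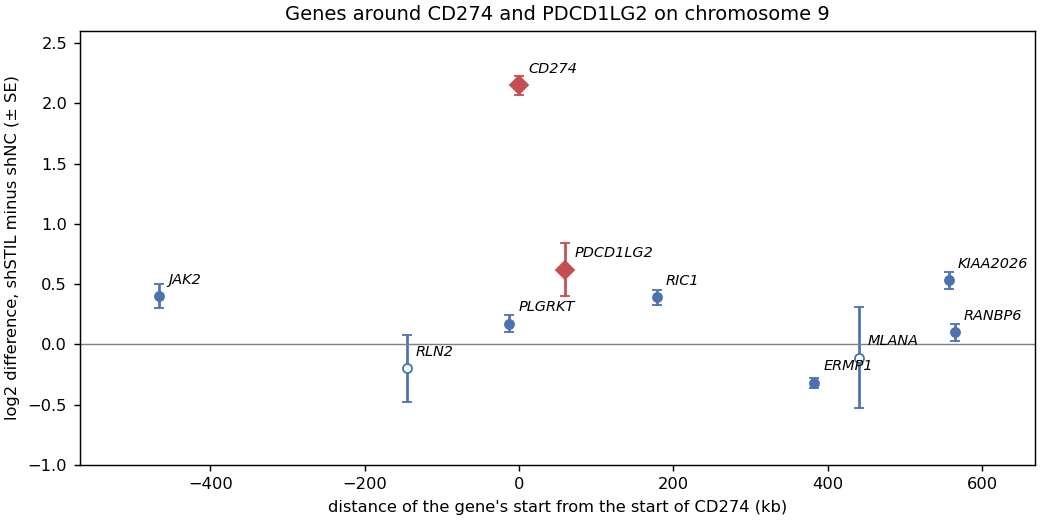
Log2 difference between shSTIL and shNC (y axis, bars are SE) of the measured genes around CD274, placed by the distance of each start from that of CD274 in kilobases (x axis). Diamonds are CD274 (2.15) and PDCD1LG2 (0.62), circles the neighbours (-0.32 to 0.53), and open circles genes with a mean log2 CPM under 0.

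The list of interferon gamma signalling to CD274 also holds type I interferon genes (IFNAR1, IFNAR2, TYK2, STAT2 and IRF9). It holds negative regulators as well, so its counts pool genes of opposing function. Of its 17 measured genes, 13 were called higher and 2 lower, with a median log2 difference of 0.39 beside 0.005 over all genes. That is 88.2% of the list called, beside 47.1% of all genes. All 17 had a mean of 1 log2 CPM or more, and 7448 of 11319 such genes were called when fitted alone. The receptor chain IFNGR1 rose by 0.58, the type I receptor chain IFNAR2 by 0.60, and IRF1, the factor that binds ISRE elements, by 0.57. IRF1 was at 4.72, 4.78 and 4.63 log2 CPM in shNC and at 5.27, 5.28 and 5.27 in shSTIL, with no overlap. SOCS3 (0.69) and PTPN2 (0.60), both negative regulators of JAK signalling, also rose. The negative regulators SOCS1 (-0.41, adjusted p = 0.0193, limma) and PIAS1 (-0.19, adjusted p = 0.0152) were lower but not called. STAT2, a transcription factor of the type I interferon response, was among those called lower and fell by 0.29, but did not pass the threshold in 3 of the 6 fits made without 1 library. IFNG itself was not among the measured genes.

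Of 30 other regulators of CD274 transcription, 12 were called higher and 9 lower (median 0.04), 70% of the list beside 47.1% of all genes. In this list 29 genes had a mean of 1 log2 CPM or more. Of such genes 7448 of 11319 were called when fitted alone, a share not far below that of the list. The NF-kB subunits RELB and NFKB1 rose by 1.22 and 0.97, the receptor EGFR by 0.85 and the AP-1 subunit FOSL1 by 0.78. Of the other NF-kB and AP-1 subunits in the list, RELA (0.55), NFKB2 (0.67) and JUNB (0.43) were called higher. REL (-0.23) and FOS (-0.14) were called lower, and JUN (-0.01) was not called. RELB was at 5.84, 5.75 and 5.75 log2 CPM in shNC and at 6.99, 7.04 and 6.98 in shSTIL. ARNT, the partner of HIF1A, fell by 0.55, the YAP1 paralog WWTR1 by 0.48, the kinase MAPK3 by 0.41 and the histone methyltransferase EZH2 by 0.41.

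Of 26 genes that handle PD-L1 or CD47 protein, 8 were called higher and 9 lower (median -0.08), 65.4% of the list beside 47.1% of all genes. In this list 25 genes had a mean of 1 log2 CPM or more. Of such genes 7448 of 11319 were called when fitted alone, a share close to that of the list. The mannosyltransferase ALG2 (0.79), the palmitoyltransferase ZDHHC9 (0.60), the kinase GSK3B (0.48) and QPCT (0.69) rose, though QPCT did not pass the threshold in 4 of the 6 fits made without 1 library. SDF2L1, an endoplasmic reticulum chaperone component, fell by 1.03, the recycling GTPase RAB11A by 0.57, HIP1R, which routes PD-L1 to lysosomes, by 0.50 and the ubiquitin ligase STUB1 by 0.46. CMTM6, which keeps PD-L1 from degradation, fell by 0.28, but did not pass the threshold in 5 of the 6 fits made without 1 library. QPCTL, the enzyme that modifies CD47 for SIRPA binding, differed by -0.14 (adjusted p = 0.0788, limma).

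Of 35 other measured checkpoint ligands and related genes, 9 were called higher and 8 lower (median 0.10). This was 48.6% of the list, close to the 47.1% of all genes called. TNFRSF14, the ligand of BTLA, rose by 0.89, LGALS8 by 0.75, the costimulatory ligand ICOSLG by 0.73 and LGALS3 by 0.56. HMGB1 fell by 0.94, the costimulatory ligands TNFSF9 and CD70 by 0.84 and 0.70, and NECTIN1 by 0.82. NECTIN1 did not pass the threshold in 4 of the 6 fits made without 1 library. NECTIN2, which shares TIGIT with PVR, fell by 0.25, opposite in sign to PVR, on neighbouring parts of chromosome 19. CD80 was not among the measured genes.

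Of 15 measured checkpoint receptors and binding partners, 1 was called higher and 3 lower (median -0.09), 26.7% of the list beside 47.1% of all genes. Only 6 of the 15 had a mean of 1 log2 CPM or more, and every called gene was among these, so the low share is not read as a result. RGMB, a binding partner of PD-L2, rose by 1.18, from 7.23, 7.24 and 7.25 to 8.43, 8.40 and 8.45 log2 CPM. THBS1, a CD47 ligand, fell by 0.93, P4HB, a galectin-9 partner, by 0.47 and SIRPA, the CD47 receptor, by 0.40. PDCD1, CTLA4 and TIGIT were not among the measured genes. The summed CPM of the 8 measured immune cell markers was 13 to 13.7 in shNC and 15.1 to 17.8 in shSTIL, most of it CD68, with CD4 at 0 reads in 5 of 6 libraries, and their part in these values was not tested.

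**Figure D4:**
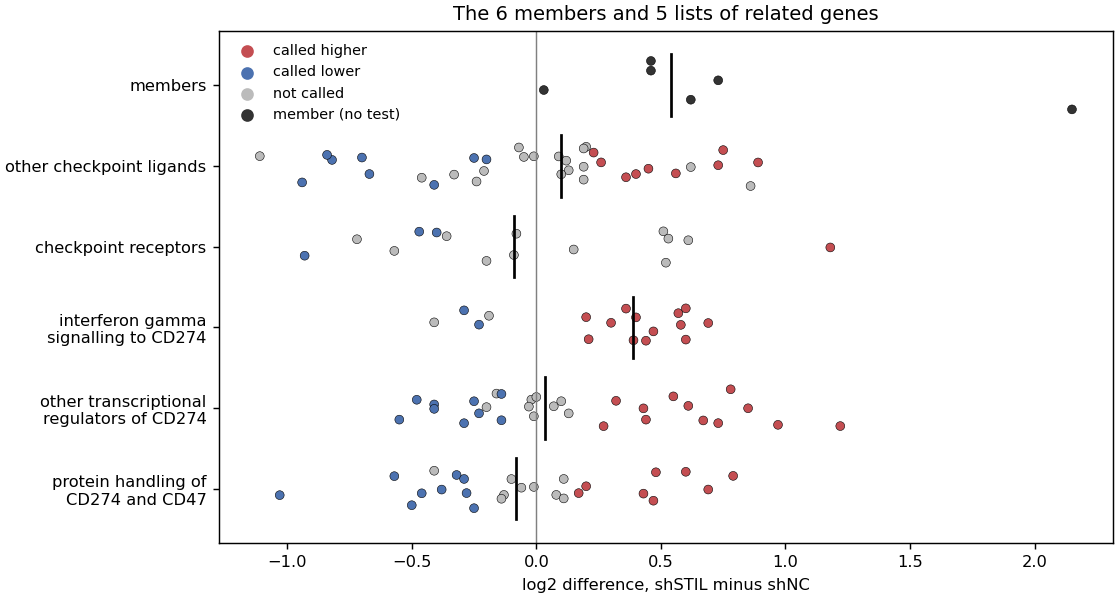
Log2 difference between shSTIL and shNC (x axis) of the 6 checkpoint ligands and of the measured genes of the 5 lists (rows). Points are genes, dark for the checkpoint ligands, which were not tested. Other points are red where called higher, blue where called lower and grey where not called. Vertical bars are medians, 0.39 for the interferon gamma list, which includes type I interferon genes, and between -0.09 and 0.10 for the other lists.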

How the data were processed

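RNA from EJ cells was sequenced on a BGI platform. Per the labels, the submitters' processing notes name Bowtie2, RSEM, limma and the hg38 build. The authors deposited log2 CPM for all 6 libraries and expected counts (RSEM estimated counts) for 4 of them. The deposited log2 CPM carried a prior count of 2 and edgeR normalization factors, which rebuilt it to within 3.36e-05. Reads were recovered from its spacing, were within 4.9e-04 reads of the deposited counts, and were rounded for edgeR and DESeq2. Their depth limits low genes.

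The 3 shSTIL libraries were compared with the 3 shNC libraries by limma 3.58.1 (R 4.3.3) with a mean-variance trend, with Benjamini-Hochberg adjustment over all 15953 genes and no filter. In 5 simulated data sets with 1000 changed genes in all, this fit called 66.3% of the changed genes and edgeR 96.1%. Of the calls, 11.1% were false with this fit, above the threshold of 0.01, and 0.723% with edgeR, below it. The counts were drawn with dispersions estimated by edgeR, and far fewer genes were changed than were called here. These shares therefore do not carry over to the real libraries. Fold changes are on the log2(CPM + prior) scale and understate low genes. CPM ratios, sums, shares and levels per kilobase use reads over the library total, without the prior count or normalization factors. Alternatives were edgeR 4.0.16, DESeq2 1.42.0, other scalings, prior counts, filters and thresholds, a replicate block and leaving out each library. Positions are from GENCODE (GRCh38). The library's strandedness is not given in the sources used here.

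The members and lists were chosen with earlier results of these data known. Named genes were the members, STIL, up to 4 called genes per list and direction with the largest difference (mean of 1 log2 CPM or more, groups not overlapping), with JAK2, CMTM6, CD80, RGMB, NECTIN2, QPCTL and IRF1, the 5 genes most like CD274 and the neighbours. CEACAM19, which overlaps PVR, was named after its values were seen. So were SOCS1, PIAS1, RELA, NFKB2, JUNB, REL, FOS and JUN. A gene that the rule also names is not reported here.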

Additional observations from a re-analysis of the deposited data

How the results depend on the processing

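Without 1 library, the genes called ranged from 4900 to 5638 (2400 to 2801 higher, 2500 to 2837 lower), against 7509 with all libraries (3750 higher, 3759 lower). Median centring gave 4222 higher and 3392 lower, and moved the PVR difference to 0.77. The CD276 difference ranged from -0.0042, without shNC replicate 2, to 0.07. Called lower in the interferon gamma list were 4 genes when low genes (mean under 1 log2 CPM) were left out, by edgeR on recovered reads and at an adjusted p under 0.05, and 1 to 2 without 1 library. Checkpoint receptors called lower were 5 at an adjusted p under 0.05. Protein handling genes called higher were 5 to 8 without 1 library. JAK2 was also not called without the trend (adjusted p = 0.0157, limma). CMTM6 was not called without the trend either (adjusted p = 0.0122, limma). No gene of the lists that the naming rule gave lost its call with edgeR. The cause was not tested. Replicate numbers did not pair the libraries (correlations of deviations -0.12, -0.06 and -0.11), and a fit with the replicate block called 3430 genes higher and 3468 lower and lost JAK2 (adjusted p = 0.0103, limma). LGALS9 and PDCD1LG2 are limited by depth.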

Other observations

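IDO1, which breaks down tryptophan and restrains T cells, was at 0.21, 0.22 and 0.56 log2 CPM in shNC and at -2.31, -0.55 and 0.52 in shSTIL. These values rest on only 1 to 22 reads per library. Its shSTIL libraries spread far more than its shNC libraries, and the log2 difference of -1.11 (SE 0.51) was not called (adjusted p = 0.0837, limma). IDO1 was named after its values were seen.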
